A study of Mus musculus with 26 samples.

Results

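The Wnt ligands, receptors and antagonists are 51 of the 23337 genes in the count tables. They were chosen by symbol: every numbered Wnt, Fzd, Sfrp, Dkk and Rspo gene together with Dkkl1, the receptors Lgr4, Lgr5 and Lgr6, the co-receptors Lrp5 and Lrp6, the antagonists Wif1, Sost and Sostdc1, and Axin2. By role they are 19 Wnt ligands, 10 Frizzled receptors, 2 LRP co-receptors, 4 R-spondins, 3 LGR receptors, 11 secreted antagonists, the feedback target Axin2 and Dkkl1, an acrosomal protein related to the Dickkopf antagonists by sequence.

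The 26 samples are whole-tissue RNA libraries from 2 segments of the epididymis, the initial segment (IS) and the caput, with 5 ArKI and 5 wild-type (WT) samples each, and from testis, with 3 samples per genotype. ArKI is the name the labels give to the knock-in line, in which a pair of lysines that accept SUMO is replaced by arginine. All animals were males of 3 months on a hybrid background that the labels give as C57Bl/6N; 129, and the knock-in line derives from hybrid embryonic stem cells in which the selection cassette was removed. Each sample is a whole tissue piece with epithelium, stroma, vessels and luminal content.

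Wnt proteins bind Frizzled receptors together with LRP5 or LRP6, which stops the destruction of beta-catenin and lets it activate target genes such as Axin2, itself a brake on the pathway. R-spondins act through LGR receptors to keep Frizzled proteins at the cell surface, whereas Dickkopf proteins and sclerostin-like proteins bind the LRP co-receptors and secreted Frizzled-related proteins bind the Wnts themselves. Wnt5a is best known for signalling that does not pass through beta-catenin, and its planar polarity branch is known for its part in the elongation and coiling of the epididymal duct.

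Depth ran from 4125768 to 21376604 counts per sample. ArKI caput replicate 2 was the shallowest library, and its median correlation with its group over 15660 genes was 0.987, against 0.990 to 0.994 in the other epididymal samples, so caput results are also given without it. The tissue labels held: Lcn9, a lipocalin of the IS, was at 10180 CPM (counts scaled by TMM to a common library size) in the WT IS and 480 CPM in the WT caput, and Lcn5, a lipocalin of the caput, was at 83.5 and 15360 CPM. The testis had a sequencing run of its own, which makes its difference from the epididymis inseparable from the run, and no test was made between them.

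In WT mice the members with the highest level per exon length were not the Wnts themselves in the epididymis. On the scale of RPKM (CPM per kilobase of exon), the IS was led by Dkkl1 at 28.6 ± 3.76, the receptor gene Fzd6 at 17.6 ± 1.54, the Wnt-binding antagonist gene Sfrp1 at 16.3 ± 2.39, Lrp5 at 13.1 ± 1.03 and Axin2 at 10.1 ± 0.444 (SD, n = 5). The caput was led by Fzd6 at 20.7 ± 0.898, Axin2 at 14.5 ± 1.90, Lrp5 at 12.8 ± 1.22, Sfrp1 at 11.9 ± 1.40 and the R-spondin receptor gene Lgr4 at 10.8 ± 0.742 RPKM (SD, n = 5). In the testis Dkkl1 stood at 512 ± 43.4 RPKM, far above Wnt3 at 15.4 ± 0.675, Lrp5 at 7.97 ± 0.350, Wnt6 at 7.89 ± 1.09 and Wnt5b at 2.63 ± 0.311 RPKM (SD, n = 3). Lrp5 and Wnt6 in the testis were closer to each other than their SDs, and so were Fzd6 and Sfrp1 in the IS. In the caput each neighbouring pair from Axin2 down to Lgr4 was closer than the larger of its SDs. Rspo1, next after Axin2 in the IS, was at 9.85 ± 2.22 RPKM, so that order is not resolved either. Wnt3, the second of the testis, had at most 9 counts in any epididymal sample. Another 9 members had at most 3 counts in every epididymal sample: Fzd9, Rspo4, Sfrp5, Sost, Wnt1, Wnt16, Wnt7a, Wnt8a and Wnt8b.

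**Figure D1:**
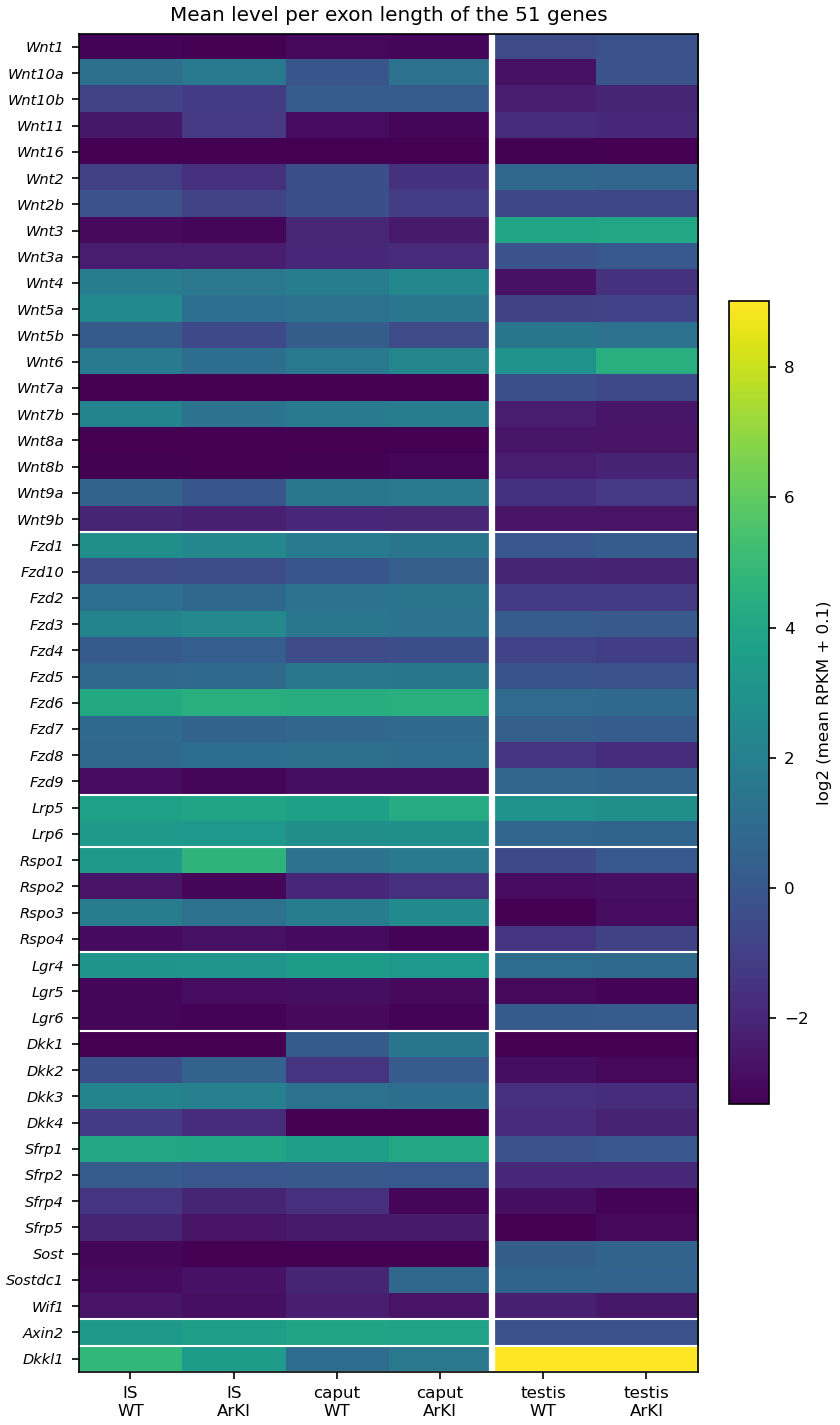
Mean level of each of the 51 genes in the 6 groups, as log2 of mean RPKM plus 0.1, with rows ordered by role (ligands, Frizzleds, LRPs, R-spondins, LGRs, antagonists, Axin2, Dkkl1) and a gap between the epididymal and the testis run. Fzd6, Lrp5, Lrp6, Lgr4, Sfrp1 and Axin2 are bright in all 4 epididymal groups, and Dkkl1 is brightest in both testis groups.

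The promoters of 4 members are printed because the results below turn on them: Wnt6 and Wnt4 were higher in the ArKI testis, and Dkk2 and Rspo1 were higher in both ArKI segments, Rspo1 in the caput by a call lost under most other settings. Each window holds the 250 bases before a start of the gene in the RefSeq promoter table (GRCm38.p6), 5′ to 3′ on the strand of the gene, and that of Wnt6 lies inside the RefSeq span of the gene. Capitals mark AGAACA or its reverse complement TGTTCT, the half-site of androgen response elements.
Wnt6, chr1:74771642-74771891, strand +: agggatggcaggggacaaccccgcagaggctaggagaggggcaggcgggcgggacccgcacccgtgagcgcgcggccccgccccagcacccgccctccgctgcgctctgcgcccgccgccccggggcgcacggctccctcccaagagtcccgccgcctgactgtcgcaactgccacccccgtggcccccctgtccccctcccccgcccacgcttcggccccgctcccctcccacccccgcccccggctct
Wnt4, chr4:137277385-137277634, strand +: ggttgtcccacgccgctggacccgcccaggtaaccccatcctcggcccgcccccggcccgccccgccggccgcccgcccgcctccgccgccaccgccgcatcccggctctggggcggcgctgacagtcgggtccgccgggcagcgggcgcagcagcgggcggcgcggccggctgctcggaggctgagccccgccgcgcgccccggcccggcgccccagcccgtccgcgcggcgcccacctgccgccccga
Dkk2, chr3:132085042-132085291, strand +: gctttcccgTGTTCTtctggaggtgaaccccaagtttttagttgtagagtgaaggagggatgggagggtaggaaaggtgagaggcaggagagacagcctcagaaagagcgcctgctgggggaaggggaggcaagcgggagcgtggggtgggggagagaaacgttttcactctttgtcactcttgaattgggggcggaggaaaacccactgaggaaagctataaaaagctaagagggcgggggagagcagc
Rspo1, chr4:124986180-124986429, strand +: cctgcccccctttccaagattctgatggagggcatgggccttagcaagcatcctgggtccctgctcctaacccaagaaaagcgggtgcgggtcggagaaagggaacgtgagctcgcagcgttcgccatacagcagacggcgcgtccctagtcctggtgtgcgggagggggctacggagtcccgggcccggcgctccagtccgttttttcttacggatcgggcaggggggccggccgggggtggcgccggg
Windows were found for 33 members (36 windows). The Wnt6 window is 79.6% G and C with 28 CpG dinucleotides, the Wnt4 window 85.2% with 44, the Rspo1 window 66.8% with 22 and the Dkk2 window 55.6% with 7, against a median of 52.4% G and C over 32851 windows. The half-site occurred once among the 4, 241 bases before the start of Dkk2 on the minus strand. On both strands it was present in 4 of the 36 member windows (11.1%: Axin2, Dkk2, Wnt5b and Wnt8b) and in 16.1% of all windows. The TCF/LEF core CTTTGAT, the site through which beta-catenin reaches DNA, or its reverse complement ATCAAAG, was present in 2 member windows (5.56%: Wnt11 and Wnt5b) and in 3.21% of all windows. These letter matches are descriptions and not sites.

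Between the segments of WT mice, which places the members along the duct, 20 of 30 tested members passed at an adjusted p below 0.05 (edgeR quasi-likelihood test, Benjamini-Hochberg over all genes). That is 66.7%, against 71.2% of all genes tested. In the caput 8 were higher and 12 lower than in the IS (35.4% and 35.8% of all genes), 1 and 7 of them past the study's thresholds for the epididymis, an adjusted p below 0.01 and a fold change above 2 (11.1% and 9.71% of all genes). Of the members, 17 (56.7%, against 57.7% of all genes) had groups that did not overlap. Among the ligands, Wnt10b was higher in the caput by 1.20 ± 0.22 (log2 fold change ± SE, adjusted p = 7.68e-05) and Wnt9a by 0.95 ± 0.15 (adjusted p = 1.19e-05), whereas Wnt5a fell by 1.33 ± 0.11 (adjusted p = 1.19e-08) and Wnt10a by 1.35 ± 0.21 (adjusted p = 8.3e-06). Among the members past the filter on low counts the largest differences were those of Dkkl1, with a log2 fold change of -3.88 ± 0.17 (adjusted p = 4.12e-11), and of Rspo1, at -2.0 ± 0.16 (adjusted p = 4.92e-09). Rspo1 encodes an R-spondin that potentiates Wnt signalling. The Dickkopf genes differed among themselves. Dkk2 was lower in the caput (log2 fold change -1.38 ± 0.27, adjusted p = 0.000145) and Dkk3 too (-1.02 ± 0.11, adjusted p = 8.4e-08). Dkk1, the LRP-binding antagonist, had 0 counts in all 10 IS samples and 2.5 CPM on average in the WT caput (0.545 to 4.68 CPM). That mean was at least 5.9-fold above the 3-count floor of the shallowest WT IS library, and the lowest WT caput sample had 5 counts. Of the Frizzleds, Fzd5, Fzd6 and Fzd8 were higher in the caput and Fzd1, Fzd3 and Fzd4 lower, with the largest at -1.10 ± 0.082 for Fzd1 (adjusted p = 2.46e-10).

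In the IS the question was which members differed in level between the genotypes. Of 29 tested members, 17 (58.6%) passed, against 29.6% of all genes, with 6 higher in ArKI (15% of all genes were higher) and 11 lower (14.6% of all genes were lower). The median log2 fold change of the 29 was -0.18, and that of all genes tested was near 0 at -4.41e-05. Groups did not overlap for 11 members (37.9%, against 20% of all genes). By the study's thresholds 0 members were higher and 2 were lower: Wnt5a and Dkkl1. These thresholds took 2.72% of all genes as higher and 1.32% as lower.

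The Wnt ligands of the IS were lower or did not pass. Of 9 tested ligands 7 were lower, 0 were higher and 2, Wnt10a and Wnt10b, did not pass by edgeR, with 1 higher at an unadjusted p below 0.05. DESeq2 gave 0 higher and 6 lower, and limma-voom 0 higher and 7 lower. For these 2 tools and for unadjusted p-values no share of all genes was taken. Wnt5a was at 38.9, 40.6, 45.8, 49.5 and 52.7 CPM in WT (values here and below run from the lowest to the highest sample) and at 15.5, 15.7, 17.5, 17.7 and 17.7 CPM in ArKI. Every ArKI sample was below every WT sample, and the ArKI samples lay close together. The log2 fold change was -1.43 ± 0.091 (adjusted p = 6.35e-10), a level lower by a factor of 2.69. Wnt7b, a ligand made by many epithelia, was at 18.6, 19.4, 23.8, 23.9 and 24.6 CPM in WT and at 10.2, 10.8, 12.4, 13.3 and 13.8 CPM in ArKI. The groups again did not overlap, with a log2 fold change of -0.86 ± 0.11 (adjusted p = 7.05e-06).

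The other 5 ligands that fell had smaller or less precise changes. Wnt9a was at 3.88, 4.38, 4.81, 4.82 and 5.58 CPM in WT and at 2.14, 2.39, 3.09, 3.43 and 3.78 CPM in ArKI (log2 fold change -0.64 ± 0.20, adjusted p = 0.018). Wnt2b was at 2.97 to 3.6 CPM in WT and 1.28 to 2.77 CPM in ArKI (-0.70 ± 0.23, adjusted p = 0.0242). For both, the WT and ArKI ranges did not overlap. Without WT replicate 3 both had an adjusted p of 0.0512. Wnt2b also lost its call without ArKI replicate 3 (0.0636) or 4 (0.0616), and with all epididymal groups in one fit. Wnt5b fell by 0.90 ± 0.27 (adjusted p = 0.0155), from 2.29 to 3.47 CPM in WT to 0.923 to 2.57 CPM in ArKI, with overlapping ranges. Wnt6 was at 5.11, 6.78, 7.32, 7.71 and 8.11 CPM in WT and at 3.43, 4.43, 4.63, 5.42 and 5.43 CPM in ArKI (-0.58 ± 0.17, adjusted p = 0.0157). The lowest WT sample of Wnt6 lay inside the ArKI range. Wnt4 had the smallest change at -0.31 ± 0.11 (adjusted p = 0.047), and that call was lost under 10 of 18 other settings. Wnt10a did not pass (0.43 ± 0.17, adjusted p = 0.0557) and gave the one positive value among the tested ligands. It passed as higher without ArKI replicate 2 (0.49 ± 0.17, adjusted p = 0.0402) or WT replicate 1 (0.51 ± 0.18, adjusted p = 0.0381). Without WT replicate 2 it passed narrowly (0.49 ± 0.18, adjusted p = 0.05 after rounding). Wnt11 was too low for the test, with 13 counts over the WT and 46 over the ArKI samples. Its ratio was 4.10 (95% interval 2.18 to 8.27, counting error only), and without the filter on low counts it had an adjusted p of 0.00215.

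Of the 9 tested Frizzled genes in the IS, 3 were higher, 2 were lower and 4 did not pass, with small changes in each direction. Fzd6, the most abundant Frizzled per length in the epididymis, was at 74.1, 81.5, 86.3, 91.4 and 91.8 CPM in WT and at 96.7, 99.8, 106, 112 and 118 CPM in ArKI (log2 fold change 0.33 ± 0.065, adjusted p = 0.000869). Fzd3, known for its part in planar cell polarity, was at 57.5 to 59.8 CPM in WT and 66.3 to 83.7 CPM in ArKI (0.29 ± 0.060, adjusted p = 0.00123). Fzd8 rose by 0.34 ± 0.11 (adjusted p = 0.0215). In all 3 the ArKI samples lay above the WT samples. Fzd1 was at 26.8, 27.4, 30.0, 30.1 and 30.9 CPM in WT and at 19.3, 19.8, 20.4, 22.6 and 25.3 CPM in ArKI, with no overlap (-0.43 ± 0.084, adjusted p = 0.000683). Fzd2 fell by 0.40 ± 0.14 (adjusted p = 0.0443), a call lost under 13 of 18 other settings. That of Fzd8 was lost without ArKI replicate 5 (adjusted p = 0.0696) or WT replicate 3 (adjusted p = 0.0582). Lrp5 and Lrp6 did not pass in the IS.

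The R-spondins of the IS went opposite ways. Rspo1 was at 14.2, 16.4, 17.6, 23.4 and 23.8 CPM in WT and at 26.0, 40.8, 43.0, 60.4 and 82.3 CPM in ArKI. All ArKI samples were above all WT samples, but they were widely spread, with the lowest near the highest WT sample. The log2 fold change was 1.40 ± 0.32 (adjusted p = 0.0121). Rspo3, the R-spondin best known from vessels and stroma, was at 8.76, 9.28, 12.2, 13.4 and 13.5 CPM in WT and at 6.26, 6.31, 7.42, 7.92 and 9.69 CPM in ArKI (-0.60 ± 0.16, adjusted p = 0.00706). Their ranges overlapped. Among the antagonists, Dkk2 was at 1.77, 2.12, 2.89, 3.10 and 3.43 CPM in WT and at 4.09, 4.57, 5.31, 5.34 and 5.80 CPM in ArKI (0.92 ± 0.20, adjusted p = 0.00186), with no overlap. The other 3 tested antagonists, Dkk3, Sfrp1 and Sfrp2, did not pass. Axin2 was higher by 0.19 ± 0.062 (adjusted p = 0.028), and that call was lost under 4 of 18 other settings.

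**Figure D2:**
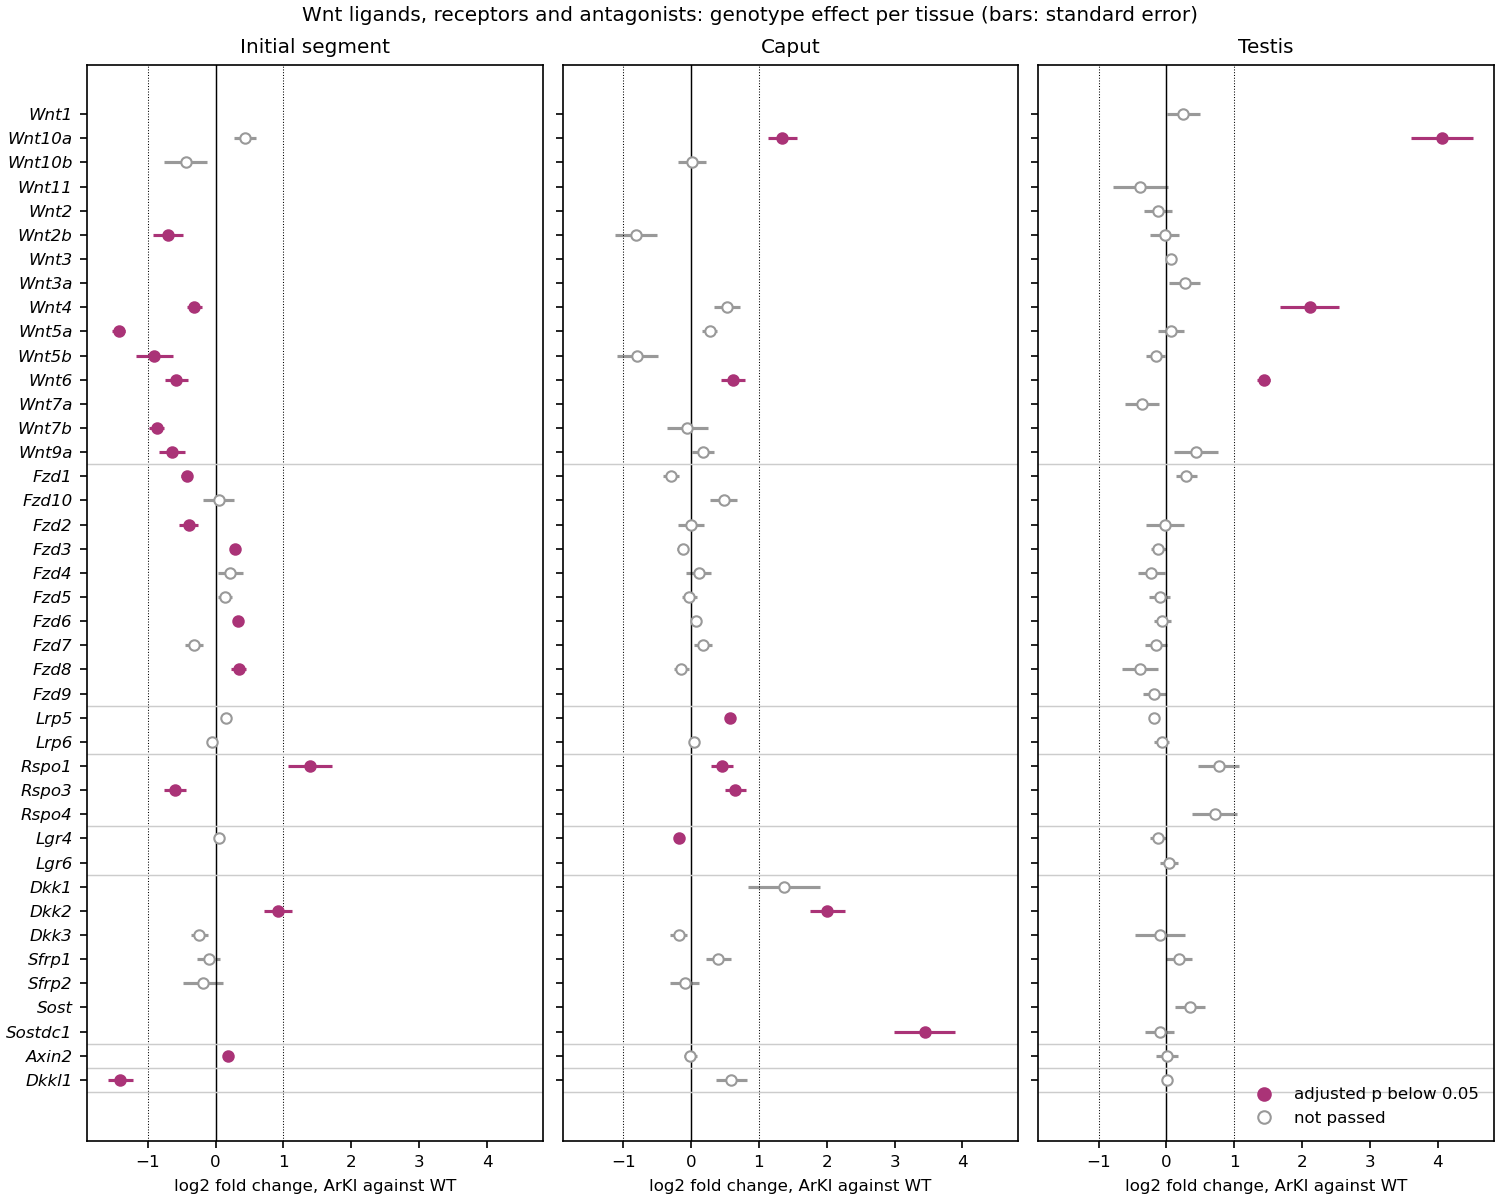
Log2 fold change (ArKI against WT) of each tested member in the IS, caput and testis, with bars of 1 standard error, filled points for an adjusted p below 0.05 and dotted lines at a fold change of 2. In the IS 7 filled points of the Wnt ligands lie left of 0 and 0 lie right of it, and in the testis Wnt10a, Wnt4 and Wnt6 are the 3 filled points.

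Dkkl1 was at 34.5, 46.6, 47.5, 48.0 and 48.6 CPM in the WT IS and at 12.5, 13.5, 16.5, 17.4 and 26.4 CPM in the ArKI IS. The groups did not overlap, and the log2 fold change was -1.40 ± 0.18 (adjusted p = 0.000229). Since Dkkl1 is known as a gene of spermatids, its counts were set beside those of Prm2, a protamine of late spermatids and sperm. In the testis there were 134 to 150 Dkkl1 counts per 1000 Prm2 counts, and in the WT caput 26.8 to 39.7. In the WT IS there were 1591 to 12690 and in the ArKI IS 12670 to 61000, there on only 2 to 9 Prm2 counts. In the ArKI caput there were 211 to 1370, on 23 to 215 Prm2 counts, so the ratio was not constant between tissues or genotypes. Prm2 itself fell in the ArKI IS, from 13.6 ± 8.44 CPM in WT to 0.796 ± 0.512 CPM in ArKI (SD, n = 5), with a log2 fold change of -4.11 ± 0.69 (adjusted p = 0.00209). Of 15 sperm and late spermatid markers 5 were tested in the IS, of which 3 were lower and 1 higher, and the summed level of the list was 84.1 to 173 CPM in WT and 66.8 to 89.0 CPM in ArKI. The part of sperm RNA in the lower Dkkl1 of the ArKI IS was not tested. In the caput all 15 sperm and late spermatid markers were lower in ArKI, with a median log2 fold change of -2.69, and Dkkl1 did not pass by edgeR (0.60 ± 0.23, adjusted p = 0.0674). It was higher by limma-voom, and by edgeR without WT replicate 3 (0.83 ± 0.21, adjusted p = 0.00957) or ArKI replicate 5 (0.70 ± 0.24, adjusted p = 0.0429).

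Markers of other cells moved in the ArKI IS with these members. Of 10 smooth muscle markers 9 were lower (median log2 fold change -0.98), with a summed level of 3539 to 3791 CPM in WT and 2917 to 3483 CPM in ArKI. All 10 endothelial markers were lower (median -0.50), with sums of 232 to 280 CPM in WT and 161 to 187 CPM in ArKI. Of 10 basal cell markers 6 were lower, with sums of 602 to 670 and 481 to 516 CPM, and of 10 fibroblast markers 7 were higher and 1 lower, with sums of 1302 to 1463 and 1439 to 1850 CPM. Of 9 principal cell markers of the IS 6 were lower, with sums of 77460 to 84050 and 66120 to 86940 CPM, and of 9 tested macrophage and T cell markers 4 were lower, with sums of 195 to 265 and 163 to 225 CPM. Of 7 tested clear cell markers 3 were higher and 1 lower, with sums of 247 to 271 and 215 to 270 CPM, and of 8 tested efferent duct and multiciliated cell markers 3 were higher and 1 lower, with sums of 676 to 717 and 645 to 934 CPM. None of the genes of these 8 lists was at 0 in every sample of either group. Their part in the lower Wnt5a, Wnt7b and Rspo3 and the higher Rspo1 and Dkk2 was not tested. In whole tissue, fewer cells of a type and less RNA per cell cannot be told apart.

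**Figure D3:**
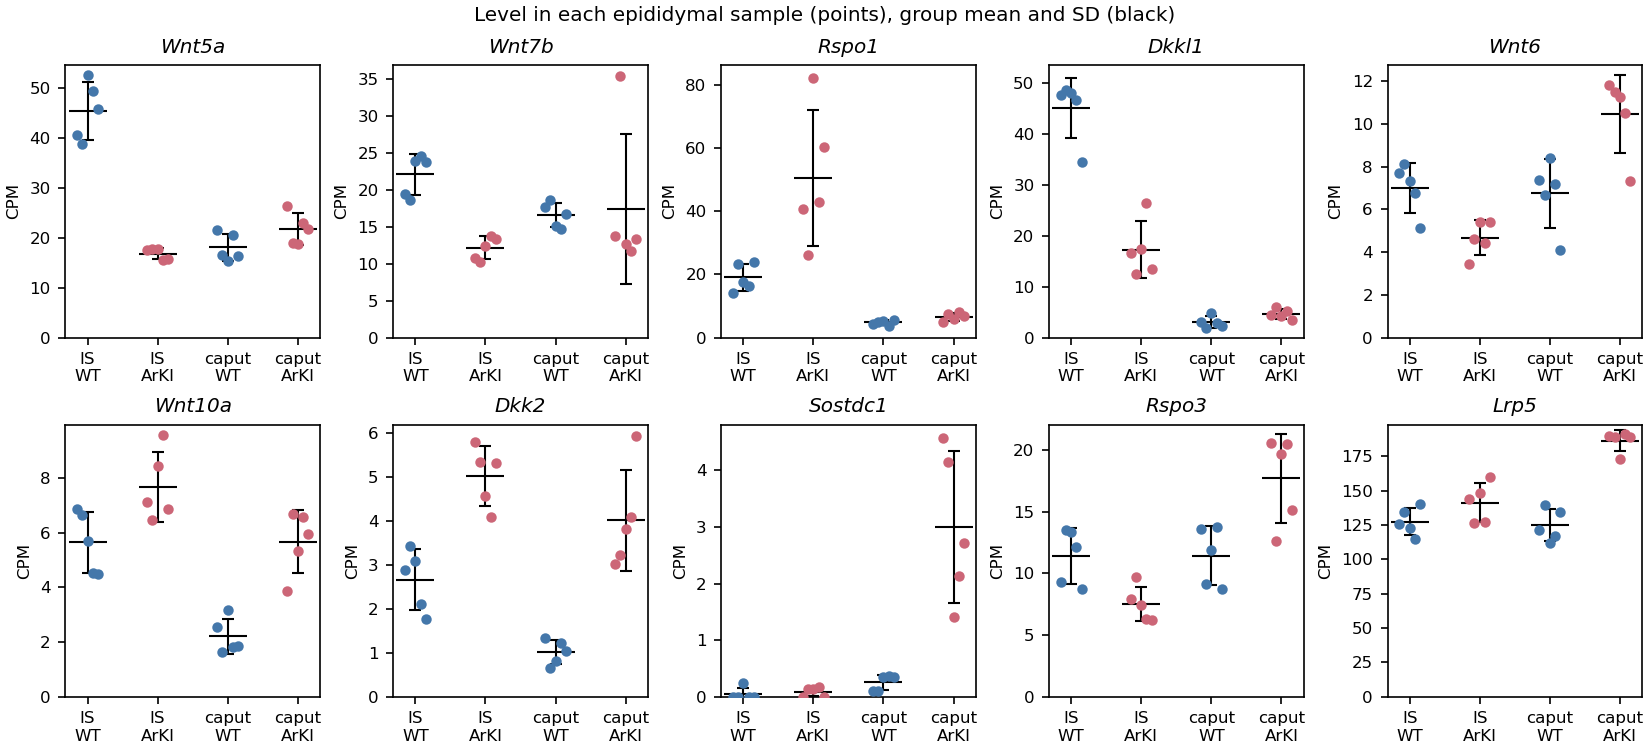
CPM of 10 members in each epididymal sample (points, blue WT and red ArKI), with the group mean and SD in black, on axes that start at 0. Wnt5a, Wnt7b and Dkkl1 fall in the ArKI IS, Rspo1 is spread widely there, and Sostdc1, Dkk2, Wnt10a and Lrp5 separate the genotypes in the caput.

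In the caput 8 of 31 tested members passed (25.8%, against 27.7% of all genes), 7 of them higher (13.7% of all genes were higher) and 1 lower (14% of all genes were lower). The median log2 fold change of the members was 0.11 and that of all genes 0.00168. Groups did not overlap for 5 members (16.1%, against 20.3% of all genes). By the study's thresholds 3 were higher (Sostdc1, Dkk2 and Wnt10a, against 2.43% of all genes) and 0 were lower (2.55% of all genes). Sostdc1 entered the test only through its counts in the ArKI samples, so that it could only be called higher, and Dkk2 reached the level of the filter in 2 of 5 WT and all 5 ArKI samples. Without ArKI caput replicate 2, 8 were higher and 3 lower. The calls of Rspo1 and Lgr4 were then lost, Wnt4 and Wnt5a passed as higher, and Fzd1, Wnt2 and Wnt7b as lower.

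Among the antagonists of the caput, Sostdc1 and Dkk2 were higher by edgeR. DESeq2 gave 3 of 6 tested antagonists as higher and limma-voom 2, with 0 lower by either. Sostdc1 encodes a secreted protein, related to sclerostin, that binds LRP co-receptors and bone morphogenetic proteins. It was at 0.102, 0.109, 0.350, 0.351 and 0.365 CPM in WT and at 1.42, 2.13, 2.72, 4.14 and 4.58 CPM in ArKI, or 11 against 130 counts. Each ArKI sample was well above each WT sample, and the WT samples were near or below the level of 3 counts. The log2 fold change was 3.44 ± 0.45 (adjusted p = 1.78e-05), and the ratio of counts per depth was 10.9 (95% interval 5.92 to 22.5, counting error only). In the IS the gene had 2 counts over the WT and 3 over the ArKI samples. Dkk2 was at 0.654, 0.818, 1.05, 1.22 and 1.33 CPM in WT and at 3.01, 3.22, 3.81, 4.09 and 5.93 CPM in ArKI, again without overlap (2.01 ± 0.26, adjusted p = 1.7e-05). Dkk1 was at 0.545, 1.34, 1.64, 4.30 and 4.68 CPM in WT and at 2.66, 4.37, 7, 8.90 and 9.15 CPM in ArKI. Its groups overlapped and it did not pass by edgeR (1.37 ± 0.53, adjusted p = 0.0897), but did without ArKI replicate 3 (1.59 ± 0.48, adjusted p = 0.0401). In ArKI too the mean caput level of Dkk1 was at least 12.5-fold above the 3-count floor of the IS.

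Sfrp4, an antagonist that binds Wnts, went the other way but was below the filter on low counts. It had 43 counts over the WT caput samples, at 0.609 to 1.33 CPM, and 3 over the ArKI samples, of which 3 libraries had 0. The ratio of WT to ArKI was 15.5 (95% interval 4.96 to 78.0, counting error only). Without the filter, its log2 fold change was -3.68 ± 0.61 (adjusted p = 4.97e-05), and that of Wnt2 was -1.39 ± 0.37 (adjusted p = 0.00634). Both were chosen after their values were seen.

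Of the 9 tested ligands of the caput, 2 were higher and 7 did not pass by edgeR, with 4 higher and 2 lower at an unadjusted p below 0.05. DESeq2 gave 3 higher and 0 lower, and limma-voom 2 higher and 0 lower. Here too the shares of all genes at an unadjusted p and by these tools were not taken. With all epididymal groups in one fit, Wnt4 was also higher (adjusted p = 0.0103), and Wnt2 (-1.40, adjusted p = 0.00164), Wnt2b (-0.81, adjusted p = 0.0279) and Wnt5b (-0.79, adjusted p = 0.0401) were lower. Wnt10a was at 1.64, 1.83, 1.87, 2.56 and 3.15 CPM in WT and at 3.85, 5.31, 5.93, 6.57 and 6.68 CPM in ArKI, without overlap (1.35 ± 0.21, adjusted p = 0.000135). Wnt6 was at 4.09, 6.65, 7.19, 7.38 and 8.41 CPM in WT and at 7.33, 10.5, 11.2, 11.5 and 11.8 CPM in ArKI (0.62 ± 0.17, adjusted p = 0.0128). Only the lowest ArKI sample of Wnt6 fell inside the WT range. Wnt4 had groups that did not overlap but did not pass (0.54 ± 0.19, adjusted p = 0.0582), and its highest ArKI sample, replicate 2, stood at 36.8 CPM against 17.1 to 22.2 in the others. Without that library Wnt4 was higher by 0.35 ± 0.094 (adjusted p = 0.00766). Wnt7b was at 14.7, 15.1, 16.7, 17.7 and 18.6 CPM in WT and at 11.7, 12.7, 13.3, 13.7 and 35.5 CPM in ArKI, where the 35.5 was again replicate 2. It did not pass with all samples (-0.05 ± 0.30, adjusted p = 0.926), and without that library the groups did not overlap and it was lower (-0.36 ± 0.097, adjusted p = 0.00801).

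Of the receptor and co-receptor genes of the caput, Lrp5 was higher and Lgr4 lower. Lrp5 was at 112, 117, 121, 135 and 140 CPM in WT and at 173, 189, 189, 190 and 191 CPM in ArKI, with all ArKI samples above all WT samples (0.58 ± 0.060, adjusted p = 1.74e-06). Its partner Lrp6 did not pass (0.04 ± 0.053, adjusted p = 0.648), and 0 of 9 tested Frizzleds passed by edgeR with the caput fitted by itself (2 at an unadjusted p below 0.05, 0 by DESeq2 and 1 by limma-voom). With all epididymal groups in one fit, and also without ArKI replicate 2, Fzd1 was lower (-0.30, adjusted p = 0.0312, and -0.36, adjusted p = 0.0169). Fzd1 was lower too without WT replicate 1 (-0.34, adjusted p = 0.0413), whereas Fzd10 was higher without WT replicate 2 (0.64, adjusted p = 0.0254). Rspo3 was at 8.77, 9.16, 11.9, 13.6 and 13.8 CPM in WT and at 12.7, 15.2, 19.7, 20.5 and 20.6 CPM in ArKI (0.65 ± 0.16, adjusted p = 0.00583), with the lowest ArKI sample inside the WT range. Rspo1 was higher by 0.46 ± 0.17 (adjusted p = 0.0497), a call lost under 14 of 18 other settings. Lgr4 was the 1 member that was lower (-0.18 ± 0.061, adjusted p = 0.0385), a call lost under 7 of 18. Axin2 did not pass (-0.01 ± 0.095, adjusted p = 0.967). Beside these, 4 of 10 fibroblast markers were higher in the ArKI caput and 0 lower (summed level 980 to 1135 CPM in WT and 1131 to 2670 CPM in ArKI), 1 of 10 smooth muscle markers was lower, and 2 endothelial markers were higher and 1 lower. Of 9 simple epithelium markers 4 were higher and 2 lower, with sums that did not overlap (2074 to 2199 CPM in WT and 2254 to 2490 CPM in ArKI). Of 7 tested efferent duct and multiciliated cell markers 3 were higher, with sums of 501 to 561 and 596 to 649 CPM, and Slc9a3 of that list was at 0 in the WT caput. Of 7 tested macrophage and T cell markers 1 was higher, with sums of 105 to 133 and 129 to 201 CPM. Their part in the member changes was not tested.

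Whether the effect of genotype itself differed between the segments was asked with an interaction term. It differed for 12 of 32 members (37.5%, against 15.1% of all genes), with 9 more positive in the caput (7.38% of all genes) and 3 more negative (7.77% of all genes). Wnt5a had the most significant difference, caput effect minus IS effect 1.70 ± 0.15 (log2 ± SE, adjusted p = 1.83e-08). Its levels in the caput were 15.4 to 21.5 CPM in WT and 18.8 to 26.4 CPM in ArKI. The ArKI IS, at 16.8 CPM on average, and the WT caput, at 18.1 CPM, can be set side by side, though the contrasts of both with the WT IS share those WT samples. Wnt6 (1.19 ± 0.25, adjusted p = 0.00156) and Rspo3 (1.25 ± 0.23, adjusted p = 0.000593) were lower in the ArKI IS and higher in the ArKI caput, each past the test in both segments. Dkkl1 (1.98 ± 0.32, adjusted p = 0.000202), Wnt4 (0.84 ± 0.23, adjusted p = 0.0127) and Wnt9a (0.81 ± 0.26, adjusted p = 0.0329) had lower levels in the ArKI IS. By edgeR with each segment fitted by itself, these 3 did not pass in the caput, where Dkkl1 was higher by limma-voom. In the one fit of all epididymal groups Wnt4 lost its IS call and was higher in the caput (0.53, adjusted p = 0.0103).

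Dkk2 and Rspo1 were the 2 members higher in both segments, of 29 tested in both. How many of all genes were higher in both segments was not counted. The caput call of Rspo1 was lost under 14 of 18 other settings. Dkk2 rose more in the caput (1.08 ± 0.33, adjusted p = 0.0268). For Rspo1 the difference did not pass (-0.94 ± 0.44, adjusted p = 0.168), but did without ArKI IS replicate 2 (-1.11 ± 0.35, adjusted p = 0.0387). Wnt10a (0.91 ± 0.27, adjusted p = 0.0217) and Lrp5 (0.43 ± 0.095, adjusted p = 0.00263) also had the larger effect in the caput. The 3 with the more negative effect in the caput were all Frizzleds: Fzd3 (-0.41 ± 0.099, adjusted p = 0.00442), Fzd8 (-0.49 ± 0.15, adjusted p = 0.0273) and Fzd6 (-0.25 ± 0.083, adjusted p = 0.0391). Sostdc1, at or near 0 counts in the IS, did not pass (adjusted p = 0.34). Wnt7b did not pass either (0.80 ± 0.32, adjusted p = 0.107), but did without ArKI caput replicate 2 (0.49 ± 0.15, adjusted p = 0.0246). Single left-out libraries ended some of these calls. Wnt10a did not pass without WT caput replicate 2 (adjusted p = 0.053), Fzd8 without any 1 of 3 libraries (highest adjusted p = 0.058), Dkk2 of 5 (0.0674), Wnt9a of 10 (0.0706) and Fzd6 of 10 (0.104). The Wnt9a call was also lost with limma-voom (adjusted p = 0.0817), and that of Fzd6 with library size only. In the same test 7 of 10 smooth muscle and 7 of 10 endothelial markers had a more positive effect in the caput, and their part in these differences was not tested.

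**Figure D4:**
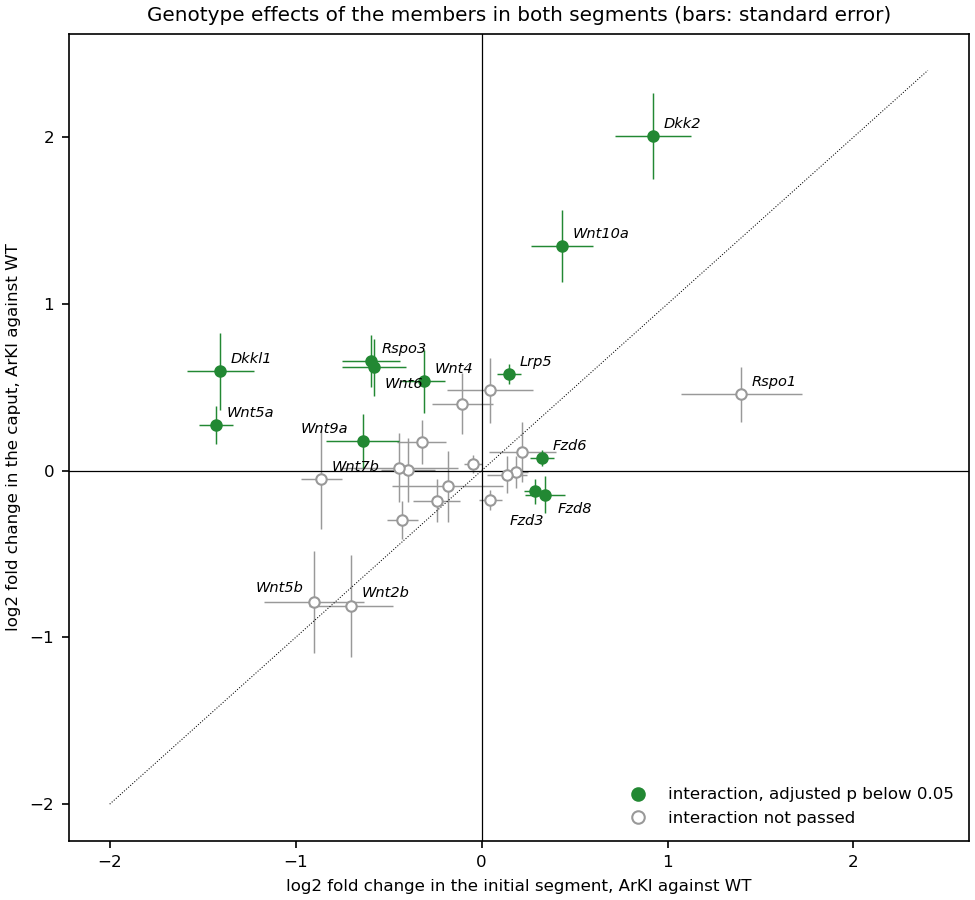
Log2 fold change of ArKI against WT in the IS (horizontal) and the caput (vertical) for the 29 members tested in both, with bars of 1 standard error, a dotted line of equal effect and green points where the interaction passed. Wnt5a and Dkkl1 lie far to the left near or above 0, Rspo3 and Wnt6 in the upper left, and Dkk2 and Wnt10a in the upper right above the line.

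In the testis 3 of 34 tested members passed (8.82%, against 1.96% of all genes), all of them Wnt ligands and all higher in ArKI (1.64% of all genes were higher and 0.328% lower). Of the 3, Wnt10a and Wnt4 entered the test only through their counts in the ArKI samples, so that they could only be called higher, and with at least 10 counts asked of every sample Wnt6 was the 1 member that passed. The same 3 met the study's thresholds for the testis, an adjusted p below 0.2 and a fold change above 2, which 0.751% of all genes met as higher and 0.0821% as lower. Groups did not overlap for 7 members (20.6%, against 17.8% of all genes). The median log2 fold change of the members was -0.02 and that of all genes -0.00233.

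Wnt6 was at 14.6, 18.2 and 19.1 CPM in WT and at 44.9, 47.2 and 48.7 CPM in ArKI. The groups were far apart, with a log2 fold change of 1.44 ± 0.094 (adjusted p = 2.01e-09), a factor of 2.70. Wnt10a had 2, 0 and 3 counts in the WT samples, in the order of replicates, and 27, 44 and 38 in the ArKI samples. The WT samples were at or below the floor of 3 counts, and the ratio of counts per depth was 17.8 (95% interval 7.41 to 56.0, counting error only), with a fitted log2 fold change of 4.06 ± 0.45 (adjusted p = 5.18e-06). Wnt4, known from the female tract and the kidney, had 4, 5 and 1 counts in WT and 17, 19 and 18 in ArKI. Its ratio was 4.42 (95% interval 2.23 to 9.73, counting error only) and its log2 fold change 2.11 ± 0.44 (adjusted p = 0.0089), and the call was lost with DESeq2 and without WT replicate 3 (highest adjusted p = 0.0754). Wnt3 was the most abundant Wnt per length in the WT testis, whereas in ArKI it was at 16.1 and Wnt6 at 21.4 RPKM. Wnt3 was at 45.0, 48.3 and 48.9 CPM in WT and at 47.3, 50.1 and 51.2 CPM in ArKI and did not pass. Dkkl1 did not pass either, at 735, 817 and 871 CPM in WT and 736, 837 and 870 CPM in ArKI. Rspo1 (0.720 to 1.57 CPM in WT and 1.5 to 2.38 in ArKI) and Rspo4 (0.499 to 0.720 and 0.846 to 1.15 CPM) did not pass, with adjusted p of 0.252 and 0.358.

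Wnt6 and Wnt10a are neighbours on chromosome 1, transcribed in the same direction and separated by 6696 bases (RefSeq, GRCm38: Wnt6 at chr1:74754342-74785322 and Wnt10a at chr1:74792019-74804176). The promoter printed above lies before a start of Wnt6 inside this span. The region was examined after their values were seen. Of 17 annotated genes within 150 kb of the pair, 12 were in the count table and 10 were tested in the testis. The 4 that were higher follow each other among the protein-coding genes: Prkag3, Wnt6, Wnt10a and Cdk5r2. Prkag3, a subunit gene of AMP-activated kinase 4870 bases before Wnt6, had 13, 11 and 13 counts in WT and 34, 49 and 41 in ArKI (1.44 ± 0.25, adjusted p = 0.00159). Cdk5r2, an activator gene of the kinase CDK5 that starts 50852 bases after the end of Wnt10a, had 1, 2 and 0 counts in WT and 51, 42 and 45 in ArKI. Its ratio of counts per depth was 37.6 (95% interval 12.6 to 185.0, counting error only), with an adjusted p of 5.24e-07. Like Wnt10a, it entered the test only through its counts in the ArKI samples. The other 6 tested genes of the region, on both sides of these 4, did not pass. Cdk5r2 was also higher in the ArKI caput, with 10 counts over the WT and 215 over the ArKI samples, a ratio of 19.9 (95% interval 10.6 to 42.1, counting error only) and an adjusted p of 0.00167, again having entered through the ArKI samples only. Its levels were 0.117 to 0.350 CPM in WT and 2.13 to 14.7 CPM in ArKI. In the IS it was below the filter, at 0 to 0.241 CPM in WT (0 to 2 counts) and 1.02 to 3.79 CPM in ArKI (6 to 27 counts), without overlap. Prkag3 was below the filter in both segments and had the lower mean in ArKI there, at 0.482 to 1.36 CPM in the WT and 0 to 0.512 CPM in the ArKI IS, and at 0.701 to 1.52 and 0.460 to 1.11 CPM in the caput. Other genes of the region passed in the epididymis. In the IS Stk36 (0.92, adjusted p = 0.000881), Cfap65 (1.52, adjusted p = 0.00939) and Ihh (1.09, adjusted p = 0.0127) were higher and Cyp27a1 (-0.58, adjusted p = 0.00139) was lower, and in the caput Cyp27a1 (-0.39, adjusted p = 0.00775) and Ihh (-0.75, adjusted p = 0.0305) were lower. The RefSeq spans of Wnt6, Wnt10a and Cdk5r2 overlap long noncoding transcripts, and the labels and the methods name library kits that differ in whether strand is kept, so reads from such transcripts cannot be told apart from those of the genes.

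**Figure D5:**
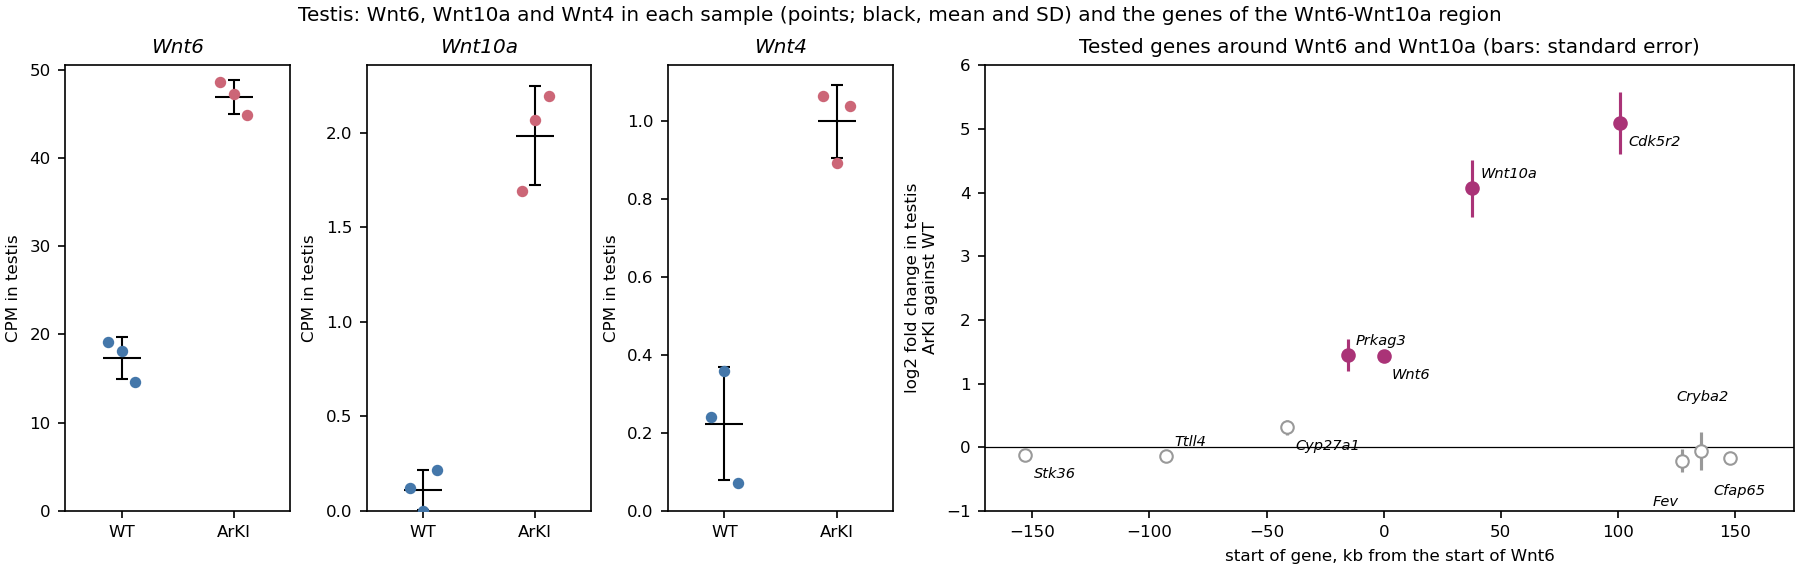
Left, CPM of Wnt6, Wnt10a and Wnt4 in each testis sample (points) with mean and SD in black. Right, testis log2 fold change of the 10 tested genes around Wnt6 and Wnt10a against the distance of the gene start from that of Wnt6 in kb, with bars of 1 standard error and filled points for an adjusted p below 0.05: Prkag3, Wnt6, Wnt10a and Cdk5r2 lie above 1 and the other 6 near 0.

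Beside the testis result, 3 of 9 Leydig cell markers were higher in ArKI, with summed levels of 675 to 888 CPM in WT and 1006 to 1088 CPM in ArKI, and 2 of 10 fibroblast markers were higher (sums 155 to 179 and 205 to 211 CPM). Of 9 tested macrophage and T cell markers 1, Lyz2, was higher by edgeR (3 at an unadjusted p below 0.05), with sums of 43.2 to 47.7 and 52.6 to 57.4 CPM. The part of these in the higher Wnt levels was not tested. Markers of simple epithelium were at summed levels of 48.2 to 54.5 CPM in WT and 48.0 to 51.6 CPM in ArKI with 0 of 7 passing by edgeR (0 also at an unadjusted p below 0.05), and the caput lipocalin gene Lcn5 was at 4.02 to 4.31 CPM in WT and 2.63 to 3.64 CPM in ArKI. The sum of 10 caput principal cell markers was higher, 221 to 269 against 1015 to 1218 CPM. Of the 8 tested genes of that list 1 was higher and 1 lower. Lcn2 was higher, by 2.58 ± 0.11 (adjusted p = 2.23e-07), and Gpx5 was lower (-0.54 ± 0.084, adjusted p = 0.000487).

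Other genes of the pathway, from lists written with earlier results known, were counted for context. Over all genes tested, 15% were higher and 14.6% lower in the ArKI IS, 13.7% and 14% in the caput, and 1.64% and 0.328% in the testis, at an adjusted p below 0.05. The share of all genes at an unadjusted p below 0.05 was not taken, so counts at that level stand without one. Of the genes that act in Wnt secretion or beside the receptors, 0 of 15 tested were higher and 2 lower in the ArKI IS, 4 of 16 higher and 4 lower in the caput, and 2 of 14 higher and 1 lower in the testis. In the caput Kremen2, a Dickkopf co-receptor gene, was higher (1.81 ± 0.32, adjusted p = 0.000353), having entered the test only through the ArKI samples with 3 to 8 counts in WT, and Porcn, which encodes the acyltransferase that Wnts need to be secreted, was lower (-1.06 ± 0.13, adjusted p = 1.01e-05). In the testis Gpc3, a glypican gene, was higher (1.23 ± 0.28, adjusted p = 0.0181), as was Serpinf1 (1.10 ± 0.12, adjusted p = 4.75e-06). Of the intracellular transducers, 0 of 29 were higher and 6 lower in the IS, among them Nkd2, an inhibitor of Dishevelled (-1.04 ± 0.25, adjusted p = 0.00404). In the caput 4 of 30 were higher and 4 lower, and in the testis 0 of 31 passed by edgeR (3 at an unadjusted p below 0.05). Genes known as beta-catenin targets were higher in 5 and lower in 5 of 22 in the IS, higher in 10 and lower in 3 of 24 in the caput (median log2 fold change 0.29), and 0 of 19 passed in the testis by edgeR (4 at an unadjusted p below 0.05). Planar polarity genes were higher in 4 and lower in 2 of 12 in the IS, and higher in 3 and lower in 3 of 12 in the caput. In the testis 0 of 13 passed by edgeR (3 at an unadjusted p below 0.05). Antagonists of bone morphogenetic proteins were listed beside the Wnt antagonists. Of 5 tested, 1 was higher and 1 lower in the IS, 1 higher and 1 lower in the caput, and 2 higher and 0 lower in the testis. Chrd was higher in all 3 tissues, by 1.03 ± 0.15 in the IS (adjusted p = 4.43e-05), 1.61 ± 0.15 in the caput (adjusted p = 4.38e-07) and 1.21 ± 0.19 in the testis (adjusted p = 0.000652). Nbl1 was lower in the IS (-1.05 ± 0.091, adjusted p = 4.77e-08).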

How the data were processed

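The authors aligned the reads to mm10 with STAR and counted uniquely mapped reads per RefSeq gene with the Subread package (version 1.5.1 in the submitters' processing notes), and deposited raw counts per gene and sample, without normalization. The counts were analysed in R 4.3.3 with edgeR 4.0.16: filterByExpr (minimum count 10, minimum total 15), TMM scaling, robust quasi-likelihood fits of each tissue by itself, of the WT segments, and of the 20 epididymal samples for the interaction. P-values were adjusted by Benjamini-Hochberg over all genes tested, and an adjusted p below 0.05 was called passed. The test of the study's methods (ROTS) was not run. Shares of all genes are for edgeR, at an adjusted p below 0.05, by the study's thresholds or without overlap. None was taken at an unadjusted p below 0.05 or for DESeq2 and limma-voom. Depth was 4125768 to 21376604 counts, and a floor is 3 counts. Intervals are exact 95% intervals. CPM were TMM-scaled over the 20 epididymal or the 6 testis samples, and RPKM used GENCODE vM21 exon lengths, matched for 51 of 51 members. Fold changes come from each comparison's own fit. The scripts were tested on simulated data.

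Groups and replicate numbers came from the sample labels. The main tests did not pair samples by number. The same-number correlation between genotypes exceeded 0.1 in 2 of 5 IS, 3 of 5 caput and 0 of 3 testis pairs, which cannot exclude pairing. The methods have IS and caput taken from 5 ArKI and 5 WT mice, but the labels do not tie samples to mice across tissues. Between IS and caput the correlation exceeded 0.1 in 3 of 5 WT and 1 of 5 ArKI pairs. It was best with the own number in 3 of 5 WT and 2 of 5 ArKI pairs, so shared mice remain possible. The segment and interaction tests treat the segments as independent, and p-values measure the spread between these samples. Members named in the text passed a genotype or interaction test or were among the 5 highest per length in a WT tissue, and other pathway genes met the study's thresholds (at most 5 per comparison); any other gene was named after its values were seen. The members and lists were chosen with earlier results of these data known. Alternatives were RLE factors, library size only, no filter, 10 counts in every sample, DESeq2 1.42.0, limma-voom (limma 3.58.1), a replicate block, all epididymal groups in one fit, and leaving out each replicate. Certain items are not reported here.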

Additional observations from a re-analysis of the deposited data

Results flagged for a closer look

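Among 87 groups of 5 samples of 23 members, 8 held a sample far from the others by Dixon's test, where chance gives about 4.35. In the WT IS, replicate 5 was low for Dkkl1 at 34.52 CPM. In the ArKI IS, replicate 1 was high for Fzd2 at 6.596 CPM, replicate 2 for Fzd3 at 83.7 CPM and replicate 5 for Fzd8 at 14.17 CPM. In the WT caput, replicate 3 was low for Fzd6 at 92.03 CPM. In the ArKI caput, replicate 3 was low for Lrp5 at 172.8 CPM, and replicate 2, the shallowest library, was high for Wnt4 at 36.83 CPM and for Wnt7b at 35.45 CPM.

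The effect of genotype differed between caput and IS for 12 members in the interaction test, as log2 differences, caput minus IS. They were 1.98 for Dkkl1, 1.70 for Wnt5a, 1.25 for Rspo3, 1.19 for Wnt6, 1.08 for Dkk2, 0.91 for Wnt10a, 0.84 for Wnt4, 0.81 for Wnt9a and 0.43 for Lrp5, and -0.49 for Fzd8, -0.41 for Fzd3 and -0.25 for Fzd6.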

How the results depend on the processing

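Of 60 member results that passed in a comparison, 45 passed under every alternative in which the gene was tested. Another 15 lost the call under at least 1, and 0 changed direction. A gene that an alternative left untested was not counted as a lost call, as for Sostdc1 and Dkk2 in the caput and Wnt10a in the testis. With the replicate block the IS gave 7 higher and 9 lower members, and IS Fzd2 and Wnt4, caput Rspo1 and the WT segment difference of Wnt2 lost their calls. In the IS, members higher by the study's thresholds were 1 in place of 0 without the filter, with DESeq2 and with all epididymal groups in one fit. In the caput, members lower were 0 with library size only, 4 without the filter, 2 with limma-voom and 5 in one fit, and by the study's thresholds 2 without the filter and 1 in one fit. Members higher in the caput were 4, and 1 by the study's thresholds, where every sample needed 10 counts, which leaves low genes untested. The same filter left 1 in the testis by either threshold. Without the filter, members higher in the WT caput by the study's thresholds were 3, and members with a more negative effect in the caput were 5. Leaving out 1 replicate at a time gave, in the IS, 4 to 8 higher and 8 to 11 lower, and 0 to 1 and 2 to 3 by the study's thresholds. It gave 6 to 10 higher and 1 to 3 lower in the caput, with 3 to 3 and 0 to 1 by the study's thresholds, and 2 to 3 higher in the testis, with 3 to 4. The WT segments gave 7 to 10 and 12 to 13, with 1 to 3 and 6 to 7, and the interaction 6 to 10 and 1 to 4. The cause of these shifts was not tested where the setting does not show it. Single left-out libraries ended the calls of IS Axin2 (ArKI replicates 1 and 3 and WT replicate 3, highest adjusted p = 0.0886), Fzd2 (7 libraries, 0.121) and Wnt4 (6, 0.129), of caput Lgr4 (6, 0.11) and Rspo1 (7, 0.152), and of Wnt2 between the WT segments (7, 0.12). Low counts limit Wnt10a and Wnt4 in the testis and Sostdc1 and Sfrp4 in the caput.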
